A study of Mus musculus with 4 samples.

Results

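The G1 cyclins and the proteins that act with them are covered here by 10 genes: the D-type cyclins Ccnd1, Ccnd2 and Ccnd3, the E-type cyclins Ccne1 and Ccne2, the kinases Cdk2, Cdk4 and Cdk6, the kinase inhibitor Cdkn1b and the retinoblastoma gene Rb1. They were chosen by symbol. All 10 were among the 23366 gene symbols counted, and all 10 passed the filter on low counts that left 13199 genes for testing. The libraries came from the mouse embryonic stem cell line R1, of strain 129X1 x 129S1, grown on gelatin in medium with serum and LIF, the cytokine that sustains self-renewal. The 2 knockdown libraries were from cells given an shRNA against Cyrano, a long noncoding RNA that pairs with the microRNA miR-7, and the 2 control libraries were from cells given a non-targeting shRNA. Both groups carried the shRNA in the vector pSicoR-Ef1a-mCh-Puro, and on passaging at day 1 the cells were selected with puromycin or sorted by flow cytometry. The sources used here do not say which of these served which library. The comparison asked how levels differed once Cyrano was lowered.

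As background, D-type cyclins bind CDK4 or CDK6 and are made in response to growth signals, and E-type cyclins bind CDK2 at the entry to S phase. Both kinds of complex phosphorylate the RB protein, which otherwise holds E2F transcription factors in check, and p27, the product of Cdkn1b, binds and inhibits cyclin E with CDK2. Mouse embryonic stem cells are known for a short G1 phase, with cyclin E and CDK2 active through most of the cycle. MicroRNAs repress transcripts through sites in the 3′ UTR that pair with the seed, bases 2 to 8 of the microRNA.

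Because the study concerns microRNA activity and Cyrano pairs with miR-7, the 3′ UTRs of the 10 genes were searched for the 7-base matches to its seed, GTCTTCC (bases 2 to 8) and TCTTCCA (bases 2 to 7 followed by A). Only the strand of the transcript was read, and matches that start within 1 base of each other counted as 1 site. The mature microRNA is shown first with the seed in capitals, from RefSeq on GRCm38.p6, followed by the sites with the matching bases in capitals, from the longest GENCODE 3′ UTR of each gene.
mmu-miR-7a-5p: uGGAAGACuagugauuuuguugu
Ccnd2 site: tggcctccgaaGTCTTCCtaggactgagt
Cdk6 site: tttgtaatacaGTCTTCCccctgccgcag
Rb1 first site: aaatgtgtcttGTCTTCCAaatgcaagttg
Rb1 second site: ggaatggtacaTCTTCCAgggtcttttga
The Ccnd2 site lies at bases 2549 to 2555 of a 3′ UTR of 5173 bases, and the Cdk6 site at bases 1224 to 1230 of 10217. The sites of Rb1 lie at bases 418 to 425 and 1026 to 1032 of 1709, and the first of them joins both matches in 8 bases. The other 7 genes held no match in these letters. A match was found in 26.4% of the 12591 tested genes with a 3′ UTR of at least 50 bases. A match is a description of the sequence and not a shown site of binding. The 3′ UTRs of the 3 genes with a match had a median length of 5173 bases, against 1167 in the 7 without, so that length and matches went together.

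The same D cyclin carries matches for other microRNAs that are known from stem cells or from cell cycle control. The search for let-7a used CTACCTC and TACCTCA, that for miR-16 TGCTGCT and GCTGCTA, and that for miR-294 AGCACTT and GCACTTA. The longest match in the Ccnd2 3′ UTR, 8 bases for miR-16 at bases 1787 to 1794, is shown beside the one in Ccne1 at bases 485 to 492, with the mature microRNA above them.
mmu-miR-16-5p: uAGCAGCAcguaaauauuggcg
Ccnd2 miR-16 site: gtttcacggtgTGCTGCTAttttagaaaca
Ccne1 miR-16 site: tattttgtaagTGCTGCTAtgtctatcaat
Of these sites, Ccnd2 held 3 for let-7a, 3 for miR-16 and 1 for miR-294. Among the 10 genes, 5 held a match for let-7a, 5 for miR-16 and 5 for miR-294, where 17.4%, 28.5% and 21% of the tested genes with such a 3′ UTR did. The median 3′ UTR was longer in the 10 genes, 1695 bases against 1192 in those tested genes.

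Gene counts summed to between 20761783 and 22321102 in the knockdown libraries and between 16854403 and 19138196 in the control libraries. Rn45s, the ribosomal RNA precursor, took 11.03% to 12.3% of them after knockdown and 15.91% to 17.47% in controls. Cyrano, listed as 1700020I14Rik, had 3.99 and 3.16 CPM (read counts normalized to library sizes scaled by TMM) in the knockdown libraries, against 24.8 and 15.2 CPM in the controls. Its log2 fold change of -2.48 ± 0.30 (SE) had an adjusted p of 0.00702 in the edgeR quasi-likelihood test. That p was 0.12 without control library 1 and 0.0567 without control library 2. Pou5f1, a defining gene of pluripotent cells, had 930 and 936 CPM after knockdown, against 938 and 1051 CPM in the controls. Sox2, another, had 487 and 436 CPM after knockdown, against 402 and 413 CPM in the controls. Fold changes went with transcript length, with a median on the log2 scale of 0.12 in the fifth of genes with the shortest transcripts and of -0.14 in the fifth with the longest. Ccnd2 and Cdk6 are among the genes with the longest.

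None of the 10 genes was called by edgeR at an adjusted p under 0.05 over all genes, where 0.0833% of tested genes were. At an unadjusted p under 0.05, 2 were higher after knockdown, Ccne1 and Ccne2, and 2 were lower, Ccnd2 and Cdk2, where 6.18% of all tested genes were higher and 5.43% lower. Both knockdown libraries lay above both controls in 3 of the 10, where 22.3% of all tested genes did so, and below both in 3, where 21.3% did. DESeq2 called 1 of the 10, Ccnd2, where it called 1.38% of the genes to which it gave an adjusted p, and limma-voom called none, where it called 0.0227% of all genes. The median log2 fold change of the 10 genes was -0.04, against -0.0016 over all tested genes.

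Levels were set against each other per kilobase of the longest annotated transcript, as CPM per kilobase. Cdk4, the partner of D cyclins, stood highest at 419 ± 9.19 after knockdown and 384 ± 31.8 in controls (mean ± SD, n = 2 each). Ccne1 followed with 174 ± 11.1 and 137 ± 13.4, Ccnd3 with 107 ± 15.6 and 102 ± 0.559, and Ccnd1 with 53.6 ± 16.5 and 59.7 ± 8.71. The level of Cdk2 was 25.8 ± 0.207 after knockdown and 33.0 ± 0.935 in controls, and that of Cdkn1b was 9.79 ± 1.96 and 8.95 ± 2.45. Over the 4 libraries, none of these 6 genes overlapped its neighbour in the order. The low end held Ccnd2, Ccne2, Cdk6 and Rb1, the last at 1.03 ± 0.130 after knockdown and 1.54 ± 0.133 in controls. There the ranges of Ccnd2 and Ccne2 overlapped, as did those of Ccne2 and Cdk6. The longest transcripts of Ccnd3 and Cdk2 are forms with a retained intron. Per kilobase of the longest coding transcript, Ccnd3 had 195 ± 28.5 after knockdown and 186 ± 1.02 in controls, above Ccne1 and overlapping it, and Cdk2 overlapped Ccnd1.

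**Figure D1:**
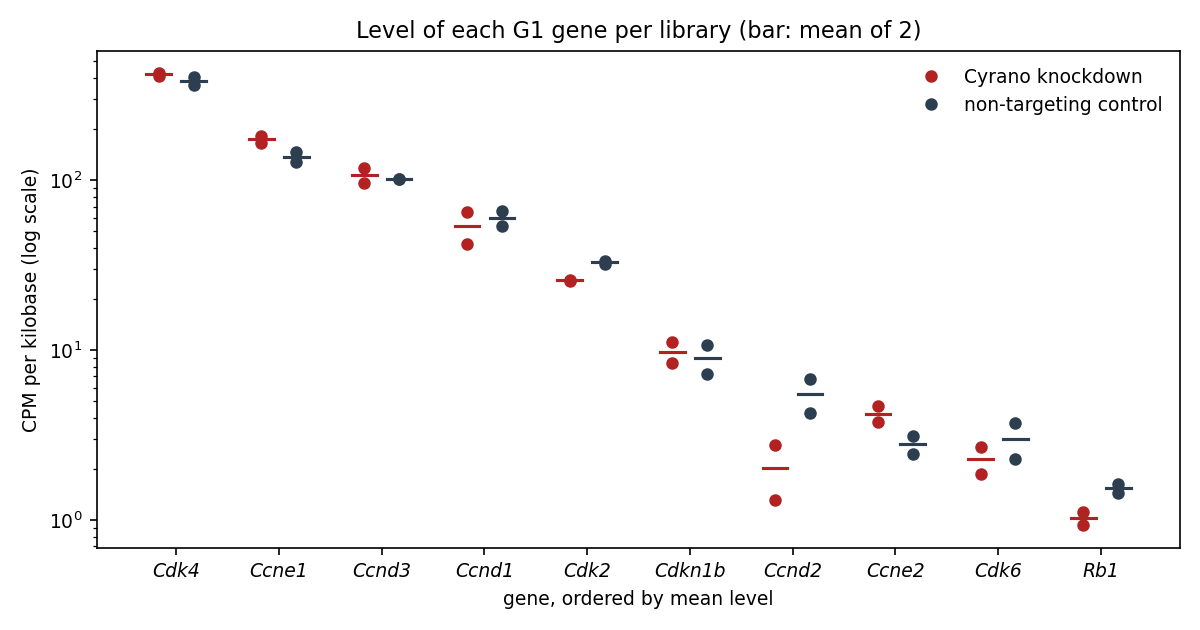
Level of each of the 10 genes in CPM per kilobase of the longest transcript on a log axis, with a point per library and a bar at the mean of 2. Cdk4 is the highest and Rb1 the lowest, and the knockdown points of Ccnd2 lie below its control points.

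Among the D cyclins, Ccnd2 had the largest fold change between the groups. Cyclin D2 is the D cyclin with known roles in proliferating neural progenitors, granulosa cells and B cells. Its raw counts were 392 and 178 in the knockdown libraries, against 700 and 512 in the controls. On the scaled measure these were 17.6 and 8.27 CPM after knockdown, against 42.6 and 27.1 CPM in the controls. Both knockdown libraries lay below both controls, although the libraries within each group differed as well. The log2 fold change was -1.43 ± 0.35 (95% interval -2.22 to -0.64), a level 2.69-fold lower after knockdown, with an edgeR adjusted p of 0.183 and an unadjusted p of 0.0027. The adjusted p was 0.00352 by DESeq2, which estimated -1.43 ± 0.33, and 0.12 by limma-voom, which estimated -1.48 ± 0.32.

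That call moved with the libraries and the filter. Without knockdown library 1, the one with more Ccnd2, the log2 fold change was -2.08 ± 0.32 (edgeR adjusted p = 2.88e-07), where 1.4% of all genes were called. Without knockdown library 2 it was -0.98 ± 0.29 (0.107), without control library 1 it was -1.07 ± 0.36 (0.455), and without control library 2 it was -1.72 ± 0.36 (0.178). With no filter on low counts the estimate was -1.43 ± 0.22 with an edgeR adjusted p of 3.38e-07, where 1.95% of 17005 genes were called. With an offset for length and GC content it was -1.32 ± 0.33 (0.19). The direction was the same in each of these fits. A fit without a library leaves 1 in its group, which is then assumed to vary like the other group.

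**Figure D2:**
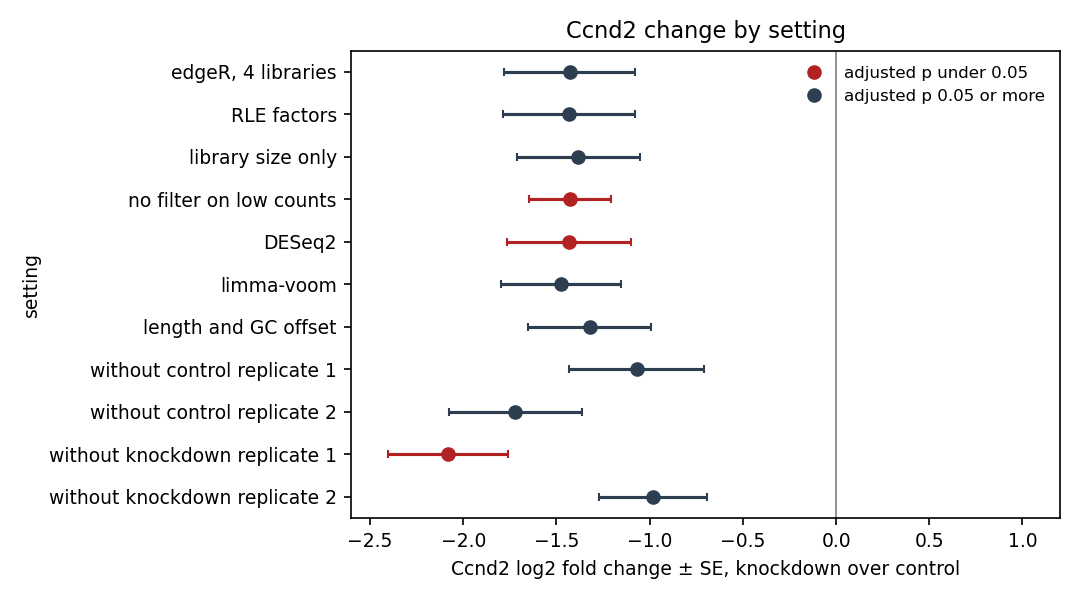
Log2 fold change of Ccnd2, knockdown over control, with its SE (bars) under the comparison of 4 libraries and each alternative without a pairing of libraries. Every estimate lies below 0, from -2.08 to -0.98, and 3 of the alternatives shown have an adjusted p under 0.05, 1 of them with a single knockdown library.

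The other D cyclins were far more abundant and overlapped between the groups. Ccnd1, whose protein is a classic target of mitogen signalling, had 244 and 157 CPM in the knockdown libraries, against 246 and 200 CPM in the controls. Knockdown library 2 alone was low, and the log2 fold change was -0.16 ± 0.20 (95% interval -0.60 to 0.29; edgeR adjusted p = 0.809). Its sign turned without that library, to 0.13. Ccnd3, the D cyclin with the highest level, had 455 and 370 CPM after knockdown, against 391 and 394 CPM in the controls. The controls lay between the knockdown libraries, and the log2 fold change was 0.07 ± 0.15 (95% interval -0.25 to 0.39; edgeR adjusted p = 0.896). It was -0.09 without knockdown library 1.

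The make-up of the D cyclins was computed from counts per kilobase in each library. Ccnd3 made up 63.4% and 68.9% after knockdown, against 58.3% and 63.9% in the controls, and Ccnd1 35.1% and 30.1%, against 37.9% and 33.5%. Both shares overlapped between the groups. With raw counts or median transcript lengths the Ccnd3 share lay above both controls in each knockdown library, though narrowly. Knockdown library 1 and control library 2 had 63.49% and 63.42% with raw counts, and 76.98% and 75.91% with median lengths. Ccnd2 made up 1.49% and 0.94% after knockdown, against 3.87% and 2.68% in the controls, so its share lay below both controls in both knockdown libraries. The means differed by -2.06 percentage points, 1.22% ± 0.391 against 3.27% ± 0.842 (SD, n = 2 each). With 2 libraries a group, the two-sided exact permutation p was 0.333, its smallest possible value. Per kilobase of the longest coding transcript, which makes Ccnd3 shorter, the Ccnd2 share was 0.789% ± 0.269 after knockdown and 2.18% ± 0.607 in controls, and the difference was -1.39 points. The ratio of Ccnd3 to Ccnd2 was 42.5 and 73.4 in the knockdown libraries, against 15.1 and 23.8 in the controls. The summed D cyclin level, of which Ccnd2 is a small part, overlapped between the groups, with 186 and 139 CPM per kilobase after knockdown and 174 and 160 in the controls.

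**Figure D3:**
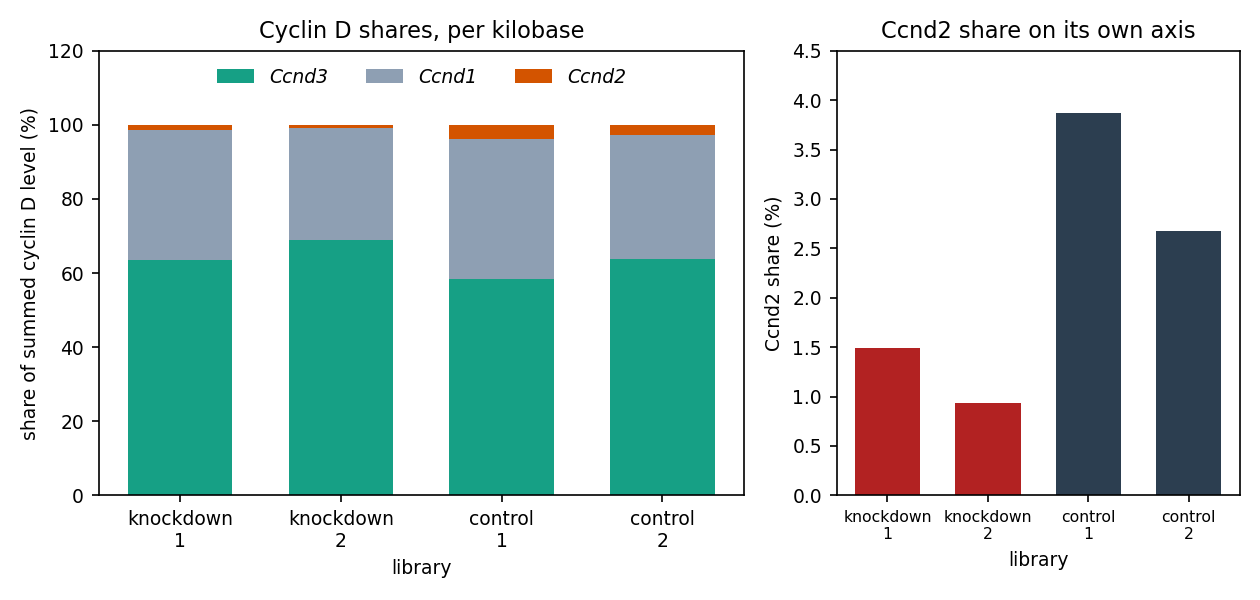
Left, share of Ccnd3, Ccnd1 and Ccnd2 in the summed cyclin D level per kilobase in each library, in percent. Right, the Ccnd2 share alone on its own axis, with 1.49% and 0.94% in the knockdown libraries, below 3.87% and 2.68% in the controls.

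Both E cyclins were higher in each knockdown library than in either control, and neither passed the test. Ccne1, the main E cyclin of these cells by level, had 363 and 332 CPM after knockdown, against 292 and 254 CPM in the controls. The log2 fold change was 0.35 ± 0.14 (95% interval 0.03 to 0.66), or 1.27-fold, with an edgeR adjusted p of 0.374 and an unadjusted p of 0.0327. Ccne2 had raw counts of 317 and 243 after knockdown and of 155 and 139 in the controls, which are 14.2 and 11.3 CPM after knockdown, against 9.43 and 7.36 CPM in the controls. Its log2 fold change was 0.60 ± 0.26 (95% interval 0.03 to 1.18; edgeR adjusted p = 0.4, unadjusted 0.0402). With the length and GC offset it was 0.36 ± 0.24.

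The E cyclins differed from each other mainly in level. Ccne2 made up 2.53% and 2.21% of the cyclin E level per kilobase after knockdown, against 2.10% and 1.89% in the controls. The summed E cyclin level was 186 and 170 CPM per kilobase in the knockdown libraries, against 149 and 130 in the controls. The ratio of summed E to summed D cyclins was 1.00 and 1.22 after knockdown, against 0.859 and 0.811 in the controls, and the groups did not overlap. Its two-sided exact permutation p was again 0.333. With coding transcript lengths the ratio was 0.658 and 0.778 after knockdown, against 0.58 and 0.531 in the controls.

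Of the kinases, Cdk2, the partner of cyclin E, had the closest replicates. It had 84.6 and 83.6 CPM in the knockdown libraries, against 110 and 106 CPM in the controls. The groups lay apart, with a log2 fold change of -0.36 ± 0.14 (95% interval -0.66 to -0.05), and a level 1.28-fold lower after knockdown. It did not pass the test (edgeR adjusted p = 0.356, unadjusted 0.0259). Cdk2 and its cyclin Ccne1 therefore had estimates of opposite sign, and the difference between them was not tested.

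Cdk4 and Cdk6, the kinases of the D cyclins, were expressed at very different levels. Cdk4 had 873 and 846 CPM in the knockdown libraries, against 743 and 835 CPM in the controls, with a log2 fold change of 0.12 ± 0.14 (95% interval -0.18 to 0.43; edgeR adjusted p = 0.778). Control library 1 was the low one, without which the log2 fold change was 0.04, and control library 2 lay close to knockdown library 2. Cdk6 had 31.2 and 21.7 CPM after knockdown, against 42.7 and 26.2 CPM in the controls. The groups overlapped, and the log2 fold change was -0.38 ± 0.25 (95% interval -0.94 to 0.18; edgeR adjusted p = 0.596). It was 0.01 without control library 1, so that library set the direction, and -0.17 ± 0.18 with the length and GC offset. Cdk6 made up 0.633% and 0.454% of the summed level of both kinases per kilobase after knockdown, against 1.01% and 0.556% in the controls.

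Cdkn1b, which encodes p27, had 38.3 and 50.9 CPM in the knockdown libraries, against 32.9 and 48.6 CPM in the controls. The spread within each group was wider than the gap between them, with a log2 fold change of 0.13 ± 0.22 (95% interval -0.34 to 0.60; edgeR adjusted p = 0.865). Without knockdown library 2 the value was -0.09, and without control library 1 it was -0.13. The ratio of Ccne1 to Cdkn1b per kilobase was 21.6 and 14.9 after knockdown, against 20.3 and 11.9 in the controls, and overlapped. Rb1 had the lowest level of all, with raw counts of 97 and 112 in the knockdown libraries and of 125 and 127 in the controls. These are 4.35 and 5.20 CPM after knockdown, against 7.60 and 6.73 CPM in the controls, without overlap, and the log2 fold change was -0.58 ± 0.31 (95% interval -1.25 to 0.08; edgeR adjusted p = 0.489).

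**Figure D4:**
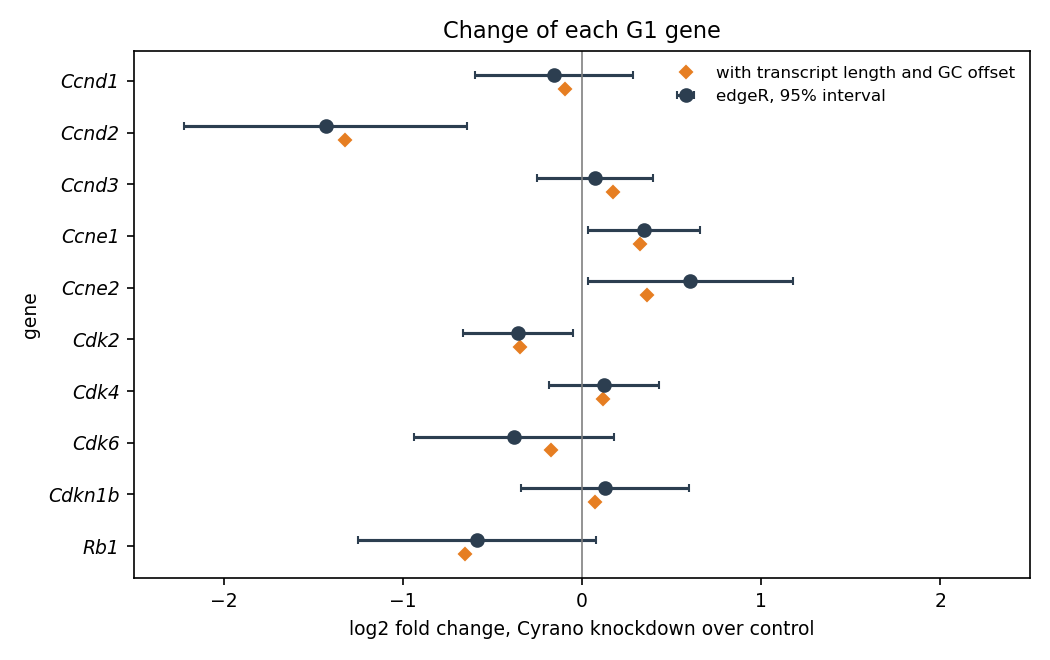
Log2 fold change of each of the 10 genes, knockdown over control, with its 95% interval from edgeR (circles and bars) and the estimate with the length and GC offset (diamonds). The intervals of Ccnd2, Ccne1, Ccne2 and Cdk2 leave out 0, and no adjusted p is under 0.05.

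The 3 genes with a miR-7 seed match, Ccnd2, Cdk6 and Rb1, all had a log2 fold change below 0. These signs were not equally firm. Cdk6 was at 0.01 without control library 1, and the 95% interval of Rb1 was -1.25 to 0.08. Of the 7 without a match, 2 were below 0 and 5 above. For let-7a, 4 of the 5 genes with a match were below 0 and 1 of the 5 without, and for miR-294 the counts were the same. For miR-16 it was 3 of 5 with a match and 2 of 5 without. Ccnd1, counted as below 0 with a match for let-7a, miR-294 and miR-16, was at 0.13 without knockdown library 2. Over all tested genes the median log2 fold change was -0.04 with a miR-7 match and 0.01 without. It was -0.03 with a match for each of the other microRNAs. Without one it was 0.002 for let-7a, 0.006 for miR-16 and 0.002 for miR-294. Fold changes over all genes also went with transcript length, as given above, and the part of length in these medians was not tested. Among the 10 genes, those with a match also had the longer median 3′ UTR for all 4 microRNAs.

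The RNA is from whole cultures, so fewer cells of a type and less RNA per cell cannot be told apart. Of the markers of primitive endoderm, 6 of 6 (Gata4, Gata6, Sox17, Pdgfra, Foxa2 and Sox7) lay above both controls in each knockdown library, where 22.3% of all tested genes did. Their summed level was 135 and 179 CPM after knockdown, against 75.4 and 98.7 CPM in the controls. None was called by edgeR or limma-voom, 2 were called by DESeq2 (1.38% of all genes), and 5 were higher at an unadjusted p under 0.05 by edgeR (6.18% of all genes). The 6 pluripotency markers summed to 3297 and 3316 CPM after knockdown, against 3427 and 3878 CPM in the controls. Of these, 4 lay below both controls in each knockdown library, where 21.3% of all tested genes did. The other 2 (Sox2 and Klf4) lay above both, where 22.3% did. Nanog among the 4 had 129 and 133 CPM after knockdown, against 216 and 228 CPM in the controls (log2 fold change -0.76 ± 0.14), with an adjusted p of 0.0696 by edgeR, 0.0458 by edgeR with the length and GC offset, and 0.000715 by DESeq2. Neural markers summed to 204 and 212 CPM after knockdown, against 184 and 222 CPM in the controls. Of the 6, 3 (Sox1, Nes and Sox11) lay above both controls in each knockdown library and 1 (Pax6) below both. The shares of all tested genes were again 22.3% and 21.3%. Sox11 had 30.2 and 21.9 CPM after knockdown, against 12.7 and 9.16 CPM in the controls, with an adjusted p of 0.0852 by edgeR, 0.0499 by edgeR with that offset, and 0.00251 by DESeq2. The fibroblast genes Col3a1, Dcn and Postn had no read in any library, where a count of 0 allows up to 3. The fibroblast list summed to 49.3 and 22.1 CPM after knockdown, against 40.9 and 24.2 CPM in the controls, most of it Thy1. The part of the endoderm, pluripotency and neural genes in the levels of Ccnd2, Ccne1 and Cdk2 was not tested.

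In the lists of partners and targets around these 10 genes edgeR called no gene over all genes, and neither did DESeq2 or limma-voom. The numbers at an unadjusted p under 0.05 follow for each list. Of the other CDK inhibitors, 5 of 6 were tested, all 5 had a log2 fold change above 0, and the median was 0.26. Of all 13199 tested genes, 6575 were above 0. In 4 of the 5 the groups overlapped, and in 1, Cdkn2a, both knockdown libraries lay above both controls, as in 22.3% of all tested genes. Cdkn2c, at 0.11 ± 0.85, had raw counts of only 6 to 15 per library. Cdkn2a, which encodes the INK4A inhibitor of CDK4 and CDK6 as well as ARF, had 17.9 and 18.0 CPM after knockdown, against 6.69 and 13.8 CPM in the controls. Its log2 fold change was 0.80 ± 0.30 (edgeR adjusted p = 0.345). It was the 1 of these 5 with an unadjusted p under 0.05, where 6.18% of all tested genes were higher. Cdkn2b had a log2 fold change of 0.52 ± 0.39 and Cdkn1c one of 0.26 ± 0.32. Cdkn1a, which encodes p21, was at 0.04 ± 0.18.

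Of the 12 other pocket protein, E2F and DP genes, 7 were below 0 and 5 above, with a median of -0.04. E2f3, which encodes an activating E2F factor, had 54.7 and 46.6 CPM after knockdown, against 36.1 and 30.1 CPM in the controls. Its log2 fold change was 0.62 ± 0.18 (edgeR adjusted p = 0.204), the lowest adjusted p of the list. E2f5, a factor that acts with pocket proteins in repression, had one of 0.64 ± 0.25 (0.354), E2f1 one of 0.27 ± 0.16 (0.558) and E2f8 one of -0.38 ± 0.25 (0.596). E2f3 and E2f5 were the 2 of 12 with an unadjusted p under 0.05, both higher, where 6.18% of all tested genes were. The pocket protein genes Rbl1 (-0.29 ± 0.24) and Rbl2 (-0.45 ± 0.30) were below 0, as Rb1 was, and both overlapped between the groups.

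Among the 11 regulators of CDK activity and of cyclin turnover, 7 were above 0 and 4 below, with a median of 0.11, and 2 had an unadjusted p under 0.05, both higher, where 6.18% of all tested genes were. Skp2, the F-box protein that marks p27 for degradation, had 112 and 101 CPM in the knockdown libraries, against 77.8 and 66.6 CPM in the controls. Its log2 fold change was 0.56 ± 0.15 (95% interval 0.23 to 0.89), with an edgeR adjusted p of 0.183 and an unadjusted p of 0.0029. Cks1b, the cofactor of SKP2 in that step, had 138 and 152 CPM after knockdown, against 120 and 111 CPM in the controls (log2 fold change 0.33 ± 0.14, edgeR adjusted p = 0.393). With the length and GC offset Skp2 was at 0.61 and Cks1b at 0.17. Cdc25b (-0.25 ± 0.19) and Cks2 (0.16 ± 0.14) had the next lowest p values.

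The S phase and mitotic cyclins with their kinase had 4 of 5 genes tested, all 4 above 0, with a median of 0.29. Ccna2, the S phase partner of CDK2, had 275 and 288 CPM after knockdown, against 215 and 238 CPM in the controls (log2 fold change 0.31 ± 0.14, edgeR adjusted p = 0.416, unadjusted 0.0449). It was the 1 of the 4 with an unadjusted p under 0.05, where 6.18% of all tested genes were higher. Cdk1 had a log2 fold change of 0.30 ± 0.14 (0.431), Ccnb2 one of 0.28 ± 0.15 (0.502) and Ccnb1 one of 0.04 ± 0.14 (0.943). In 3 of the 4 both knockdown libraries lay above both controls, as in 22.3% of all tested genes. The germline cyclin Ccna1 was near 0 and not tested.

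The 14 genes of S phase entry that E2F factors are known to activate were split evenly, 7 above 0 and 7 below, with a median of 0.0012. Pcna, the sliding clamp of DNA polymerase, was the 1 of 14 with an unadjusted p under 0.05, where 6.18% of all tested genes were higher. It had 489 and 509 CPM after knockdown, against 417 and 358 CPM in the controls (log2 fold change 0.36 ± 0.14, edgeR adjusted p = 0.356), and the estimate was 0.19 with the length and GC offset. Rrm2 followed with 0.23 ± 0.15 (0.578), Mcm3 with -0.14 ± 0.14 (0.73) and Cdt1 with -0.14 ± 0.15 (0.745). The summed level of the list was 4324 and 4028 CPM after knockdown, against 4176 and 3994 CPM in the controls, which overlapped.

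**Figure D5:**
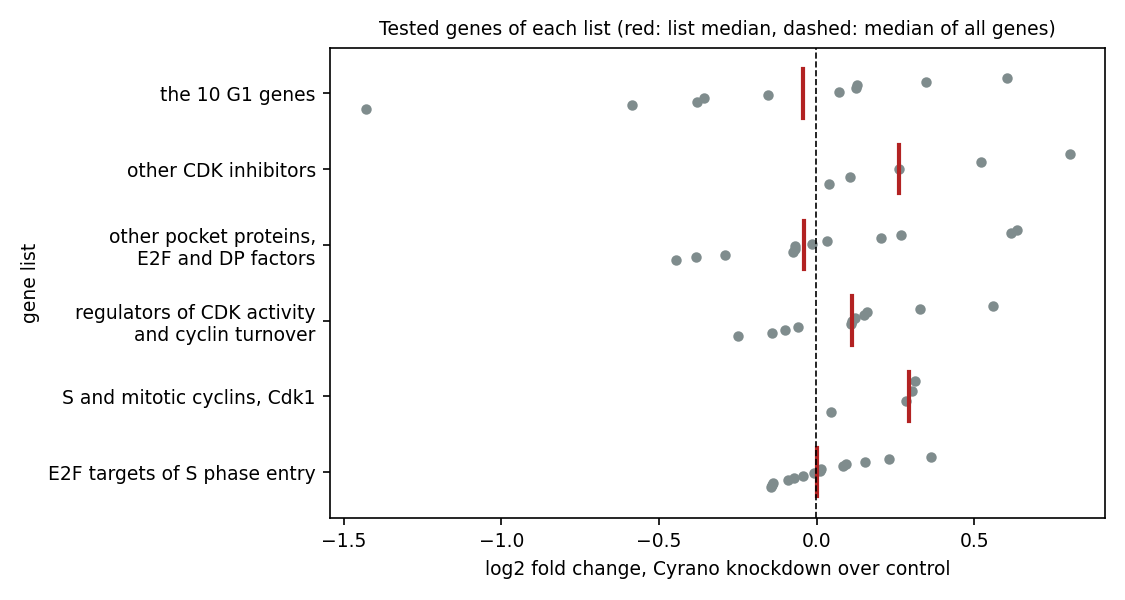
Log2 fold change, knockdown over control, of every tested gene in the 10 G1 genes and in the 5 lists around them (points), with the median of each list (red) and of all tested genes (dashed). Ccnd2 at -1.43 is the lowest point, and Cdkn2a at 0.80 the highest.

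Genes whose pattern over the 4 libraries was closest to that of Ccnd2, the gene of the 10 with the lowest unadjusted p, were found by the Euclidean distance of centred log2 CPM. They were Lrp1 at a distance of 0.226, Oas2 at 0.335 and Ly75 at 0.351. Lrp1 had 52.2 and 29.5 CPM in the knockdown libraries, against 123 and 85.7 CPM in the controls, so that, as for Ccnd2, knockdown library 2 was lowest and control library 1 highest. Its log2 fold change was -1.35 ± 0.27 (edgeR adjusted p = 0.123), that of Oas2 -1.41 ± 0.40 (0.198) and that of Ly75 -1.22 ± 0.36 (0.277). The distance is over 4 libraries only and is given as a description. The genes were picked for this pattern in the same libraries, so a like order and like fold changes follow from the choice.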

How the data were processed

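Raw read counts per gene symbol were deposited, 1 file per library, with no normalization. Per the submitters' processing notes, the authors used build mm9 with TopHat, bedtools, SAMtools and HTSeq. Neither the annotation nor the counting's strand setting is given in the sources used here. Reads of overlapping or antisense genes can therefore not be set apart. Tallies that name no gene made up 33.13% to 40.84% of reads, most of them without a unique alignment, and were left out. Poly(A) RNA was made into libraries by a strand-specific dUTP method, after extraction with either of 2 kits that cannot be matched to libraries.

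The counts went into edgeR 4.0.16 (R 4.3.3): filterByExpr (minimum count 10), TMM factors, robust glmQLFit and two-sided glmQLFTest on group alone, with Benjamini-Hochberg adjustment over 13199 genes and a threshold of 0.05. The method was tested on simulated data, drawn as independent libraries, for its recovery of known fold changes. SE is the absolute log2 fold change over the root of F. Alternatives used DESeq2 1.42.0, limma-voom (limma 3.58.1), other scaling, filters, lengths and left-out libraries. Transcript lengths and 3′ UTRs came from GENCODE M21 by symbol (98.4% matched), without coordinates since its build differs. Replicate libraries differed beyond sampling noise (chi-square over degrees of freedom 20.54 for the knockdown pair and 25.36 for the control pair). The design text calls them biological replicates without saying how cultures were separated, and p-values measure only the spread between libraries. In the lists, the genes named were the 4 with the lowest unadjusted p, with others named after their values were seen. Members and lists were chosen with earlier results of these data known.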

Additional observations from a re-analysis of the deposited data

How the results depend on the processing

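Each of the 10 genes was refitted under 12 alternatives, and 114 of the 120 values kept their direction. The 6 that turned were all from fits with 1 library left out: Ccnd1 at 0.00081 without control library 1 and 0.13 without knockdown library 2, Ccnd3 at -0.093 without knockdown library 1, Cdk6 at 0.012 without control library 1, and Cdkn1b at -0.13 without control library 1 and -0.09 without knockdown library 2. Over left-out libraries Ccnd1 ran from -0.52 to 0.13, Ccnd3 from -0.093 to 0.22, Cdk6 from -0.69 to 0.012 and Cdkn1b from -0.13 to 0.44. The number of the 10 genes called higher was 0 throughout. The number called lower was 0, and 1 (Ccnd2) with no filter, by DESeq2, without knockdown library 1 and in both fits with a replicate block, so it ranged from 0 to 1 over left-out libraries. Over all genes 5 were called higher and 6 lower, 0.0833% of the 13199 tested. DESeq2 called 72 higher and 64 lower, 1.38% of the genes to which it gave an adjusted p. Limma-voom called 1 and 2 (0.0227%), and edgeR unfiltered 174 and 158 (1.95% of 17005). Scaled by library size alone edgeR called 32 and 18, and with RLE factors 2 higher. With a library left out the range was 0 to 60 higher and 0 to 131 lower. The cause was not tested. The same-numbered libraries deviated together with a correlation of 0.244 across genes. With only 2 pairs the numbers are not shown to pair the cultures. With the replicate block 504 of the 13199 tested genes were called higher and 451 lower. With the block and the length and GC offset the numbers were 296 and 225. In these fits Ccnd2, the 1 of the 10 genes called, had a log2 fold change of -1.48 and -1.38. Lengths scale the shares: the difference for Ccnd2 among D cyclins, -2.06 points, was -1.39 with coding transcript length (chosen after seeing the data), -4.30 with median transcript length and -3.32 with raw counts. For Ccne2 among E cyclins, 0.378 points was 0.645 with median length, and for Cdk6 beside Cdk4, -0.241 points was -0.824 with median length and -1.27 with raw counts. With a library left out the differences ran from -5.52 to -0.567 for Ccnd1, -2.65 to -1.46 for Ccnd2, 2.31 to 7.90 for Ccnd3, 0.217 to 0.539 for Ccne2 and -0.47 to -0.013 for Cdk6. The lowest counts were those of Rb1, 97 to 127 per library.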
